A study of Mus musculus with 2 samples.

Results

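The 40 genes described here encode the machinery that licenses origins, unwinds and copies DNA at the replication fork, and signals when forks stall. They were chosen by gene symbol from what their proteins do and not from any measured value, and all 40 symbols were found among the 22367 protein-coding genes of GENCODE M1, an annotation of the mouse genome build mm9. The measurement is DRIP-seq of primary neural stem/progenitor cells (NSPCs), in which genomic DNA is cut with restriction enzymes, hybrids of RNA and DNA are pulled down by the S9.6 antibody, and what is recovered is then sequenced. The cells came from frontal brains of C57BL/6 mice at postnatal day 7, and by the study's methods they received 0.5 µM aphidicolin, a DNA polymerase inhibitor, for 48 h to bring about mild replication stress. The labels name no treatment, and no untreated NSPCs were compared, so the R-loops of these genes under slowed replication cannot be set against those of unstressed cells. The data are 1 list of 22132 R-loop peaks that gives where each peak lies and carries neither a signal nor a score nor reads. Depth and replicate spread are therefore unknown, each value below is a description without error or test, and in a bulk culture a hybrid in few cells and a weak hybrid in many cannot be told apart.

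An R-loop is a stretch where RNA pairs with its template strand and leaves the other DNA strand unpaired, and it forms more readily where that unpaired strand is rich in G. The origin recognition complex (ORC), Cdc6 and Cdt1 load the MCM helicase on DNA before S phase. Cdc45, GINS and Mcm10 then activate it, polymerases and primase copy behind it with the help of the PCNA clamp, and replication protein A (RPA) coats the single-stranded DNA. When a polymerase is slowed, as by aphidicolin, RPA-coated DNA recruits the kinase Atr through Atrip, and Atr activates the kinase Chek1. Many genes of this machinery are switched on at the entry into S phase by E2F transcription factors. R-loops are themselves known as obstacles to forks, so these genes stand on both sides of the question the study raises about hybrids and replication stress.

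The sequences below are shown because R-loops are known for G-rich unpaired strands: each is the 60 bp of coding strand where G outnumbers C the most inside a peak of the named gene, read 5′ to 3′ from mm9, with runs of 3 or more G in capitals.
Tipin, intron 1, chr9:64129555-64129614, plus strand, 141 bp after the TSS: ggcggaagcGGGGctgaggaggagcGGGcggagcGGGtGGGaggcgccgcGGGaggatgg
Cdt1, intron 1, chr8:125092353-125092412, plus strand, 438 bp after the TSS: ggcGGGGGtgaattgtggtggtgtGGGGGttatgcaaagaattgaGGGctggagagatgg
Rpa1, intron 12, chr11:75124048-75124107, minus strand: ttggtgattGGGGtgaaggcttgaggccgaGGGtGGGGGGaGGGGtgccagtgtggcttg
Mcm3, intron 13, chr1:20796373-20796432, minus strand: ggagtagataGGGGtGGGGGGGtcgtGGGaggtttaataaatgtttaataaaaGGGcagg
The Tipin stretch holds 38 G and 10 C, the Cdt1 stretch 31 G and 3 C, the Rpa1 stretch 33 G and 6 C, and the Mcm3 stretch 27 G and 2 C. They are among the richest: over the 19 peaks of the members, the largest excess of G over C in 60 bp ranged from 4 to 34 (median 21). Taken over the whole peak, C outnumbered G on the coding strand in 8 of the 19, most of all in the first peak of Rfc1 (GC skew, the difference between G and C divided by their sum, of -0.55) and the second of Orc3 (-0.39). The skew was slight in the peak of Mcm7 (-0.0039) and the first of Orc3 (-0.0062). Each of these also holds the start of a gene on the opposite strand. The same search over the first 1 kb after the transcription start site (TSS) found stretches just as rich in G in genes without a peak.
Cdc6, intron 1, chr11:98769402-98769461, plus strand, no peak in the gene: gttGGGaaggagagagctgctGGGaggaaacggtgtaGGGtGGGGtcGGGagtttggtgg
Mcm6, intron 1, chr1:130255645-130255704, minus strand, no peak in the gene: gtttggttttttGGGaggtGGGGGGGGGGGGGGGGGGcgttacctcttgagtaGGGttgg
The Cdc6 stretch holds 33 G and 4 C, and the Mcm6 stretch 34 G and 4 C. The GC skew of the whole first 1 kb was 0.222 in Cdc6 and -0.0221 in Mcm6, the lowest of the members. Over the first 1 kb, the excess of G over C in the richest 60 bp was 16 to 34 (median 28) in the 5 genes whose TSS lay in a peak, and had a median of 19 in the other 35. The groups overlapped: 31 of the 35 reached 16, and 5 of them reached 28. The value of 16 is that of Orc3, where the stretch lies outside the peak.

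R-loop peaks were found in 12 of the 40 genes (30.0%), against 39.6% of all protein-coding genes. The 12 are Mcm3 and Mcm7 of the helicase, Gins2 and Gins4, the licensing genes Orc3, Orc4 and Cdt1, the clamp loader subunit Rfc1, the RPA subunit Rpa1, the polymerase subunit Pold1, and Atrip and Tipin of the checkpoint. Longer genes and genes with GC-rich promoters contain peaks more often, so each member was set beside the other protein-coding genes in its own class of gene length and of promoter GC content, taken within 2 kb on either side of the TSS. Their shares give a mean of 45.0%, or 18 genes with a peak where 12 were found. Transcription, which the study ties to R-loop formation, was not part of these classes, so they mix transcribed and silent genes. The TSS lay in a peak in 5 genes (12.5%), Orc3, Orc4, Cdt1, Pold1 and Tipin, against 14.9% of all protein-coding genes and 12.9% in genes of like length and promoter GC. The transcription end site (TES) lay in a peak in 1 gene, Mcm7 (2.50%), against 10.9% of all protein-coding genes and 12.0% in genes of like length and promoter GC. The share was thus close to the background at the TSS, and below it over the gene and at the TES, by counts that rest on 1 list and few genes. With peaks of at least 1 kb alone, the same 12 genes (30.0%) stood against 31.8% of all protein-coding genes and 35.3% in genes of like length and promoter GC, or 14.1 genes, and so nearer to the background.

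**Figure D1:**
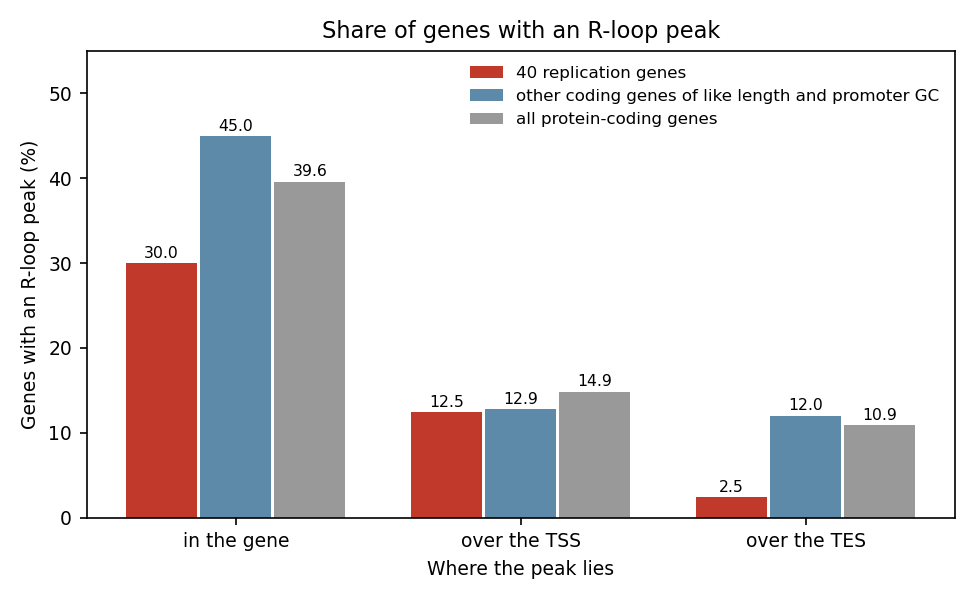
Bars give the percentage of genes with an R-loop peak anywhere in the gene, over the TSS and over the TES, for the 40 replication genes, for other protein-coding genes of like length and promoter GC, and for all protein-coding genes. The replication genes stand at 30.0% against 45.0% and 39.6% over the gene, and at 12.5% against 12.9% and 14.9% over the TSS.

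Set against genes of like length alone, the lower share over the gene was seen in the longer members and not in the shortest. This pattern was not computed with promoter GC taken into account, and the length classes hold few members. Among members under 10 kb, 2 of 6 contained a peak (33.3%), against 22.2% of protein-coding genes of that length. From 10 to 20 kb it was 5 of 16 (31.3%) against 42.4%, and from 20 to 40 kb 1 of 8 (12.5%) against 47.8%. From 40 to 1000 kb it was 4 of 10 (40%) against 58.4%. The longest member, Prim2 (216 kb), which encodes the large primase subunit, had no peak, and neither did Atr (94.0 kb). The members were about as long as the rest, with a median of 17.9 kb (3.24 to 216 kb) against 15.4 kb, and their promoter GC content was close to that of the rest, with a median of 46.7% (42.3 to 55.1%) against 48.01%.

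The 12 genes held 19 peaks, of which 5 covered a TSS, 1 a TES and 13 lay within the gene. Their median width was 1.78 kb (0.327 to 8.13 kb) against 1.32 kb for all peaks, and 13 of the 19 (68.4%) were at least 1 kb wide against 58.7%. Of the 19 midpoints, 15 lay in introns, while 13 peaks touched an exon of the first annotated transcript. Positions in the gene were not counted over all peaks, so whether these counts differ from the background is not known. The peaks covered between 3.26% and 86.3% of the 12 genes (median 14.5%), against a median of 10.4% in all protein-coding genes that contain a peak. Taken over the summed length of all 40 members, peak or not, 2.98% was covered, against 3.81% over all protein-coding genes.

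**Figure D2:**
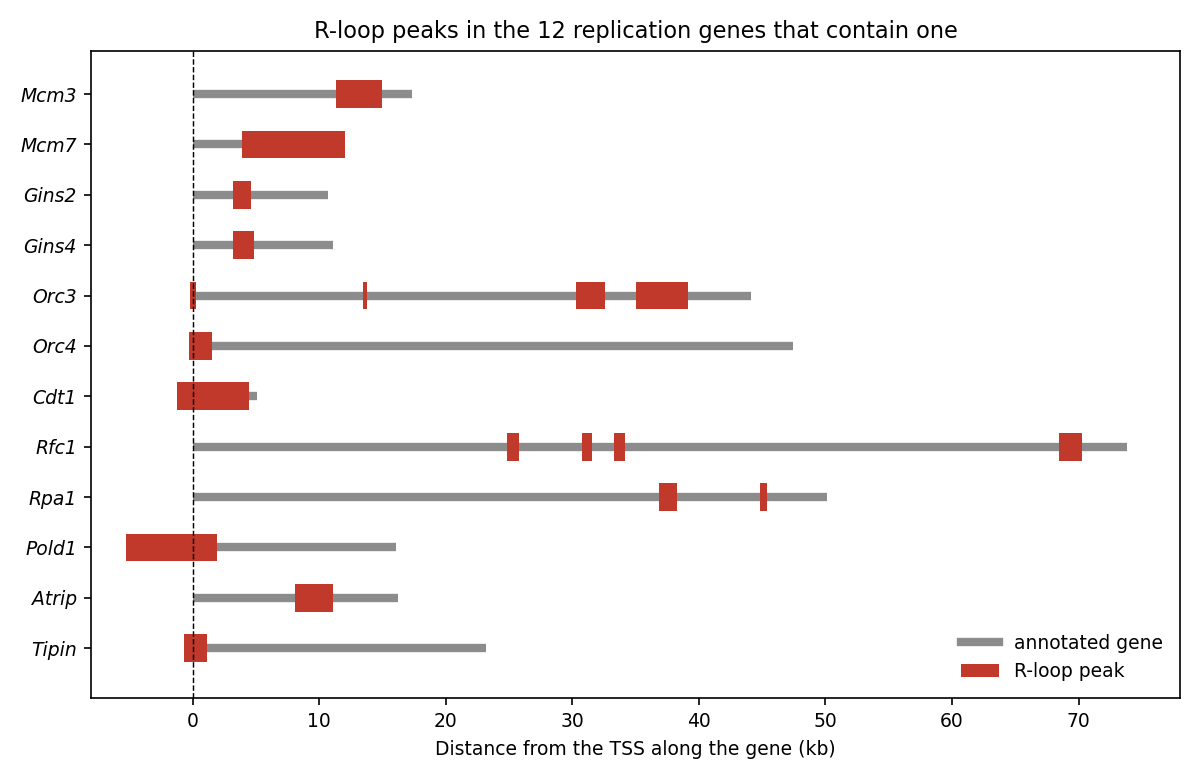
The 12 genes that contain an R-loop peak are drawn to scale as gray bars from the TSS (0, dashed line) in the direction of transcription, in kb, with peaks in red. Peaks of Orc3, Orc4, Cdt1, Pold1 and Tipin cross the TSS, that of Mcm7 runs past the gene end, and the 4 peaks of Rfc1 and both peaks of Rpa1 lie inside the gene, far from the TSS.

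Origin recognition and licensing was the group with the most TSS peaks, with 3 of its 7 genes, against 0.891 in genes of like length and promoter GC. With a peak anywhere in the gene it also had 3, against 3.11. The group was singled out by its TSS count, and over all 40 members 5 TSSs lay in a peak, against 5.14. Cdt1, which brings the MCM helicase to ORC, lies on the plus strand at chr8:125091915-125097028 and is 5.11 kb long. Its peak, chr8:125090711-125096325, was 5.62 kb wide, ran from -1204 to 4410 bp relative to the TSS and took in exons 1 to 9 of 10. It covered 86.3% of the gene, the highest share of the 40 members, and stopped 703 bp before the TES. The 2 ORC subunit genes with a peak differed in where their peaks lay.

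Orc3, at chr4:34518045-34562193 on the minus strand (44.1 kb), held 4 peaks over 15.7% of its length. The peak at its TSS, chr4:34561943-34562437, was 0.495 kb wide, had a GC content of 65.1% and ran from -244 to 250 bp. Rars2, a mitochondrial arginyl-tRNA synthetase gene, starts 13 bp away on the opposite strand inside the same peak, so the hybrid cannot be given to either gene. The other Orc3 peaks, 0.327, 2.28 and 4.07 kb wide, began 13.5, 30.3 and 35.0 kb into the gene, and the widest of them touched exons 14 to 16 of 20.

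Orc4, at chr2:48758344-48805797 on the minus strand (47.5 kb), had a single peak of 1.84 kb, chr2:48804252-48806087, from -290 to 1545 bp. It covered 3.26% of the gene and held the starts of 5 coding Orc4 transcripts, which spread over 1043 bp. The start of Mbd5, a methyl-CpG-binding domain gene on the opposite strand, lay in this peak too. The other genes of the group, Orc2, Orc5, Orc6 and Cdc6, had no peak. For Orc5 the nearest peak was 580 kb away, in the gene Reln, the greatest distance among the 40 members, while for Cdc6 a peak of 13.3 kb in Rara, a retinoic acid receptor gene, began 6.98 kb past the gene end.

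In the MCM2-7 helicase, 2 of 6 subunit genes contained a peak where 2.80 corresponds to genes of like length and promoter GC, and none had a peak at the TSS. Mcm7, at chr5:138605811-138613650 on the minus strand (7.84 kb), had the widest peak of the members, 8.13 kb at chr5:138601638-138609763. It began 3.89 kb after the TSS, covered exons 7 to 15 of 15 and 50.4% of the gene, and ran past the TES so that 48.6% of the peak lay in Mcm7. The rest held the whole of Cops6, a COP9 signalosome subunit gene on the opposite strand whose end meets that of Mcm7, and the microRNA genes Mir25, Mir93 and Mir106b, which are hosted in Mcm7 introns, were covered as well. In Mcm3, at chr1:20793055-20810359 (minus strand, 17.3 kb), the peak chr1:20795383-20799045 was 3.66 kb wide, began 11.3 kb after the TSS and took in exons 12 to 15 of 17, or 21.2% of the gene. Mcm5 and Mcm2 had their nearest peaks 3.82 and 3.87 kb upstream, Mcm6 10.1 kb downstream and Mcm4 209 kb upstream. The subunits work as a single ring, and 4 of the 6 genes had no peak, a count near that of genes of like length and promoter GC. The peaks of Mcm3 and Mcm7 lay toward the gene end, that of Mcm7 in part outside the gene.

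For the factors that turn the loaded helicase into an active one, 2 of 6 genes contained a peak, against 2.83 in genes of like length and promoter GC. Both belong to GINS, the complex that joins Cdc45 on the helicase, and in both the peak lay inside the gene, starting 3.17 kb (Gins2) and 3.15 kb (Gins4) after the TSS. The Gins2 peak, chr8:123108564-123110036, was 1.47 kb wide, lay in and around exon 3 of 5 and covered 13.8% of the gene. Another annotated protein-coding gene, Gm20388, overlaps this peak and also that of Cdt1, and starts in neither. The Gins4 peak, chr8:24343311-24344992, was 1.68 kb wide, lay in intron 3 and covered 15.2%. Gins3 and Gins1, Cdc45 and Mcm10 had no peak, with the nearest at 3.07, 40.6, 12.8 and 35.5 kb.

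Of the sliding clamp Pcna and the 5 genes of its loader, Rfc1 alone contained peaks, 1 of 6 against 2.25 in genes of like length and promoter GC. Rfc1, the large subunit, at chr5:65653091-65726909 on the minus strand, is also by far the longest of the 6 with 73.8 kb. Its 4 peaks were 0.922, 0.822, 0.875 and 1.78 kb wide, began 24.9, 30.8, 33.3 and 68.5 kb after the TSS and covered 5.96% of the gene. Rfc4, Pcna, Rfc5, Rfc2 and Rfc3 had their nearest peaks at 3.11, 9.40, 13.7, 16.3 and 82.0 kb, and that of Pcna covered the start of the neighbouring Cds2, a phospholipid synthesis gene. In RPA, 1 of 3 genes contained a peak, against 1.07 in genes of like length and promoter GC. The 50.2 kb Rpa1 (chr11:75111668-75161826, minus strand) held 2 peaks, and the shorter Rpa2 (10.4 kb) and Rpa3 (3.24 kb) held none. The Rpa1 peaks, 1.44 and 0.567 kb wide, began 36.9 and 44.8 kb after the TSS, the first over exon 13 of 17, and covered 3.99% of the gene.

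Among the 5 polymerase and primase genes, 1 contained a peak, against 2.52 in genes of like length and promoter GC. This was Pold1, the catalytic subunit of DNA polymerase delta and so a member of the polymerase class that aphidicolin inhibits. Pold1 lies at chr7:51788116-51804219 on the minus strand (16.1 kb), and its peak, chr7:51802273-51809524, was 7.25 kb wide and ran from -5305 to 1946 bp. Of that peak 26.8% lay in Pold1, where it covered 12.1% of the gene. The rest held the whole of Nr1h2, the liver X receptor beta gene, which lies upstream on the same strand, so hybrids of the Pold1 promoter and of Nr1h2 cannot be told apart. Its GC content was 56.7%, and the stretch richest in G, with 34 G and 4 C, lay upstream of the Pold1 TSS at -3661 bp.
Pold1 peak, chr7:51807821-51807880, minus strand: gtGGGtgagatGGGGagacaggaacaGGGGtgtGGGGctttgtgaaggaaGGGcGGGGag
Pola2, a subunit of the primase-bound polymerase alpha, came closest to having a peak without having one: a peak of 3.37 kb began 565 bp past its end. Prim1, Pole and Prim2 had their nearest peaks at 3.29, 25.4 and 50.0 kb.

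In the checkpoint and fork protection group, 2 of 7 genes contained a peak, against 3.41 in genes of like length and promoter GC. Tipin, which binds Timeless in the fork protection complex, lies at chr9:64129414-64152599 on the plus strand (23.2 kb). Its peak, chr9:64128701-64130521, was 1.82 kb wide, ran from -713 to 1107 bp, and was the one TSS peak of the 5, apart from that of Cdt1, in which no other protein-coding gene started. For Timeless, its partner, the nearest peak was 29.5 kb away. Atrip, at chr9:108960447-108976638 on the minus strand (16.2 kb), had a peak of 2.96 kb, chr9:108965553-108968516, over exons 7 and 8 of 13 and 18.3% of the gene. It lay 8.12 kb after the annotated start but held the start of a shorter Atrip transcript, Atrip-005. Its partner kinase Atr had none, although a peak over the start of the neighbouring exonuclease gene Xrn1 began 2.82 kb past the Atr end. Topbp1, the Atr activator, Chek1 and the adaptor Clspn had their nearest peaks at 13.3, 27.5 and 47.6 kb.

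The 28 genes without a peak lay nearer to R-loop peaks than other genes without one. Their median distance to a peak was 15.0 kb (0.565 to 580 kb), against 51.7 kb for all protein-coding genes without a peak, and the median number of peaks within 100 kb of the TSS was 4 against 1. The backgrounds in this paragraph were not taken by class of length and promoter GC. The median length was 18.7 kb in the 28 genes and 9.57 kb in all protein-coding genes without a peak. The nearest peak was within 1 kb for 1 gene, within 5 kb for 7, within 10 kb for 10, within 20 kb for 16 and within 100 kb for 25. It lay upstream for 14 and downstream for 14, and in 6 cases it covered the start of another protein-coding gene. For all 40 members, the median number of peaks within 100 kb was 5, against 3 for all protein-coding genes, and 4 members (10.0%) had none there, Mcm4, Orc5, Orc6 and Rpa3, against 24.4%. The contrast within the list was wide, since Rfc2 had no peak of its own but 15 within 100 kb, and Orc5 had 0 even within 500 kb.

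**Figure D3:**
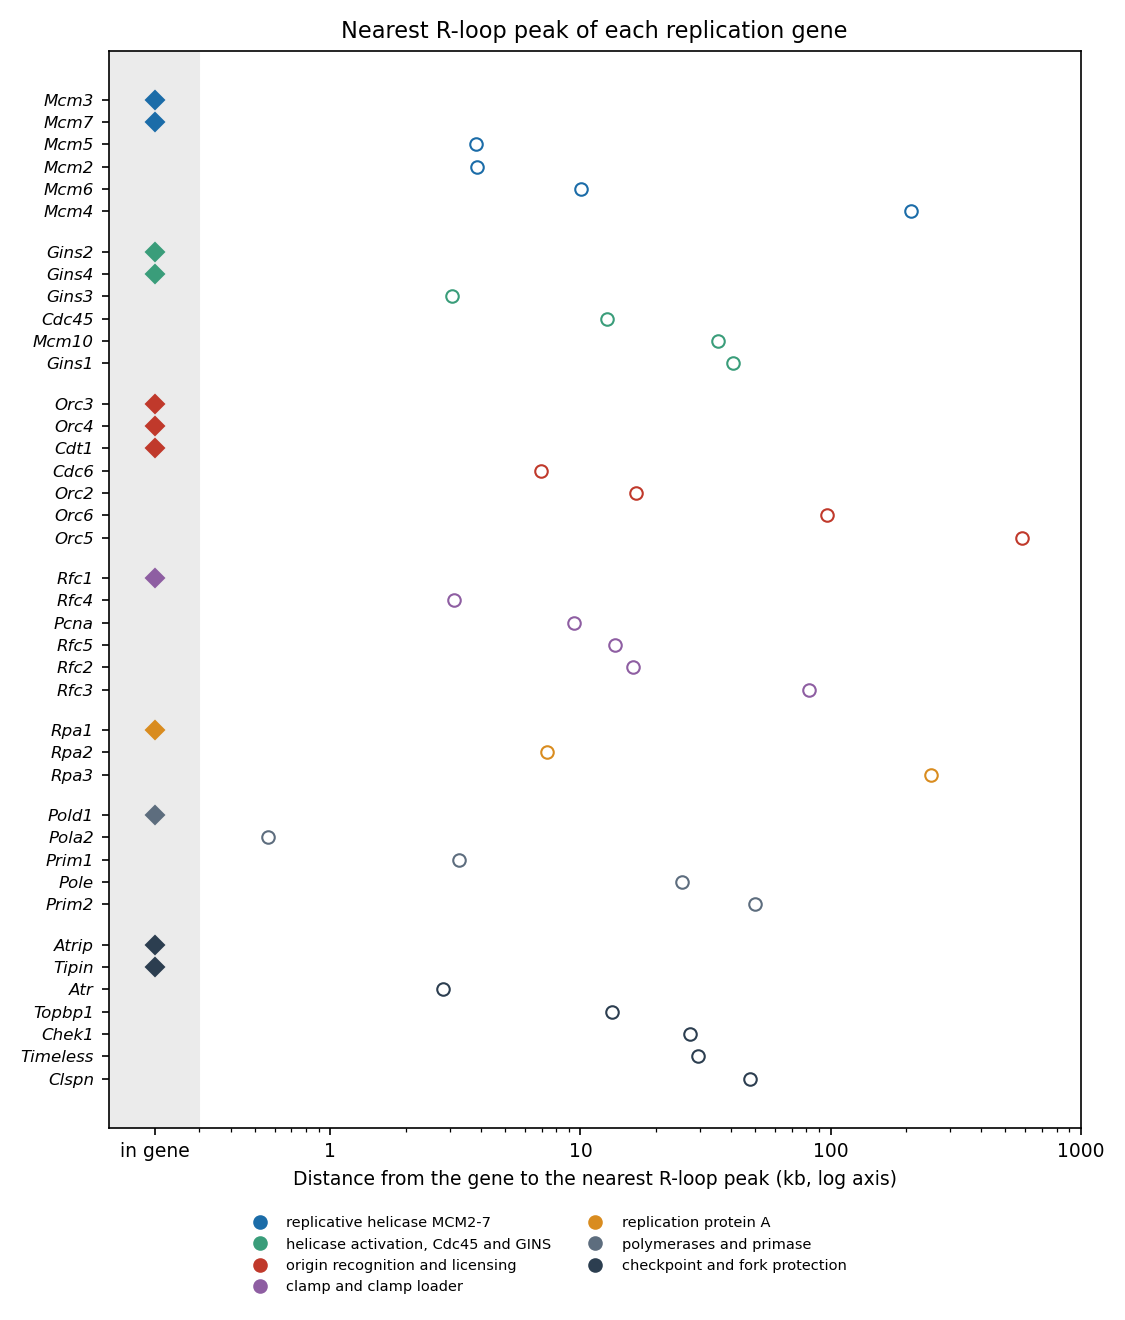
Each symbol is 1 of the 40 genes, grouped and coloured by role, placed by the distance in kb (log axis) from the gene to the nearest R-loop peak. Filled diamonds in the gray band contain a peak, and open circles range from Pola2 at 0.565 kb to Orc5 at 580 kb.

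**Figure D4:**
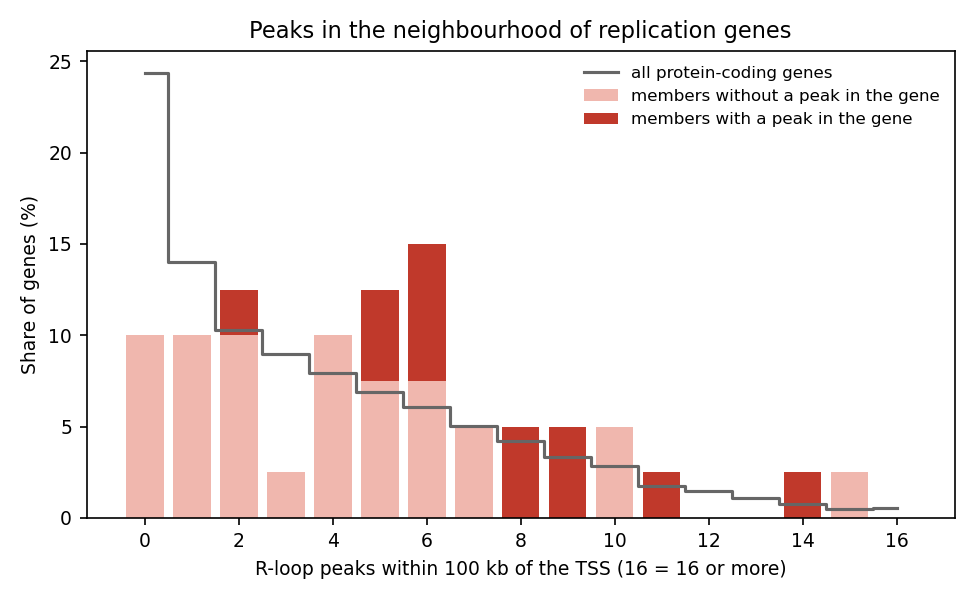
Bars give the percentage of the 40 replication genes by the number of R-loop peaks within 100 kb of the TSS, split into genes with (red) and without (pink) a peak of their own, and the gray line gives all protein-coding genes. The members have fewer genes at 0 peaks (10.0% against 24.4%) and a median of 5 against 3.

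Close neighbours were frequent among the members. In 9 of 40 (22.5%) another protein-coding gene starts on the opposite strand within 1 kb upstream, against 7.15% of all protein-coding genes. The pairs are Orc3 with Rars2 (13 bp), Prim2 with 1700001G17Rik (57 bp), Rpa1 with Smyd4 (109 bp), Rpa3 with Gm16039 (115 bp), Orc6 with Vps35 (119 bp), Pole with Pxmp2 (120 bp), Topbp1 with 1300017J02Rik (133 bp), Mcm4 with Prkdc (466 bp) and Gins1 with Abhd12 (659 bp). Of these shared promoters, that of Orc3 and Rars2 lay in a peak, and those of the other 8 did not (11.1% of 9), against 26.3% of the 1599 protein-coding genes with such a neighbour. The count takes upstream starts only, so it leaves out Orc4. The start of Mbd5, on the opposite strand, lay in the peak at the Orc4 TSS.

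GC skew on the coding strand was computed over the first 1 kb after each TSS, since the displaced strand of an R-loop tends to be the G-rich one. Among all 40 members it was above 0 in 35 (87.5%), against 64.9% of protein-coding genes, with a median of 0.0700 against 0.0390. It was 0.268 in Tipin, 0.194 in Pold1, 0.193 in Orc4, 0.169 in Orc3 and 0.0340 in Cdt1, the 5 genes with a TSS peak. Their median of 0.193 compares with 0.0670 (-0.0221 to 0.222) in the other 35, and the same medians over all protein-coding genes were 0.0649 with and 0.0345 without a TSS peak. Over the first 500 bp these medians of the members were 0.163 and 0.0839, a smaller difference. The groups of members overlapped. Cdc6 (0.222), Rfc3 (0.216) and Cdc45 (0.205) had no peak at the TSS and a skew above the median of those that did, and 26 of the 35 were not below Cdt1. The peak at the Orc3 TSS ended 250 bp after the TSS, so most of the first 1 kb of Orc3 lay outside it.

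How long a piece of DNA was pulled down with a hybrid depends on where the 5 restriction enzymes cut. The fragment that holds the TSS had a median length of 2.30 kb (1.49 to 5.42 kb) in the 5 members with a TSS peak and 1.39 kb (0.194 to 5.14 kb) in the other 35. Over all protein-coding genes the values were 2.39 and 1.39 kb, so fragment length moved with a peak at the TSS in the members as in the rest, and its part in which TSSs were called was not tested. Of the 35 members without a TSS peak, 15 had fragments at least as long as the shortest of the 5. Mcm2 had the shortest fragment of the 40, 0.194 kb, and Cdt1 the longest, 5.42 kb. Of the 38 edges of the members' peaks, 11 (28.9%) lay within 100 bp of a restriction site, against 28.3% of all edges.

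**Figure D5:**
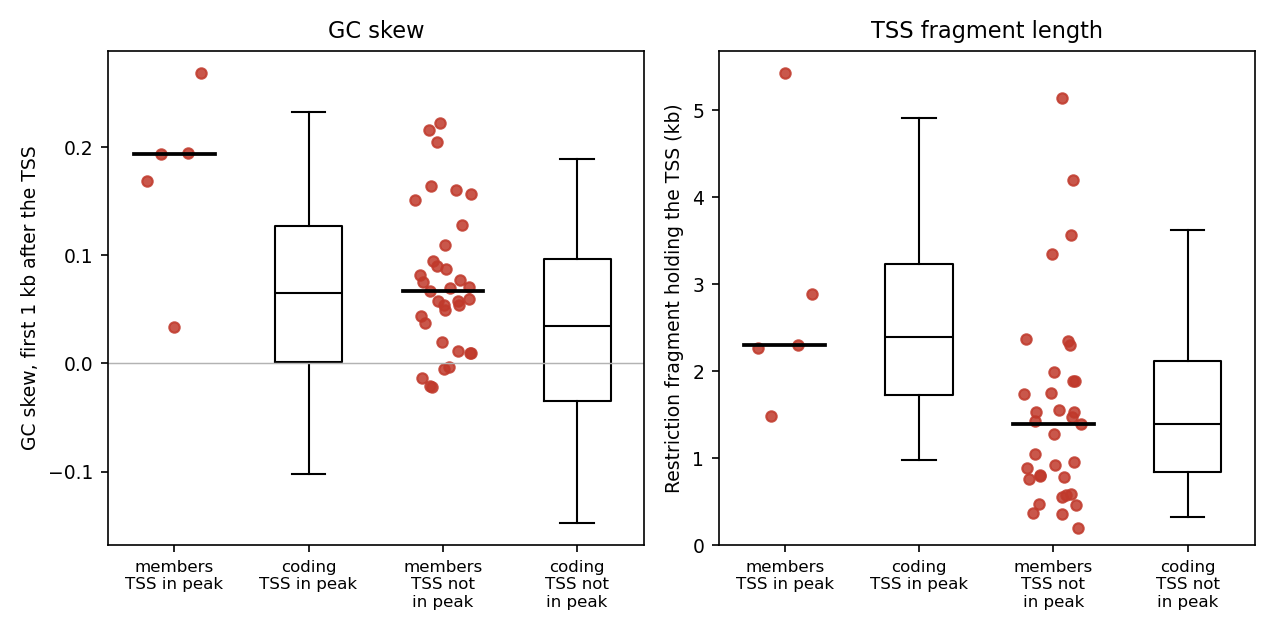
Left, GC skew over the first 1 kb after the TSS, and right, the length in kb of the restriction fragment that holds the TSS, with 1 red point per member and black bars at the medians. Boxes show the quartiles of all protein-coding genes with whiskers at the 5th and 95th percentile; members with a TSS peak lie higher in both panels (medians 0.193 against 0.0670, and 2.30 against 1.39 kb), and the points overlap.

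Because E2F factors drive many of these genes, their promoters, from 250 bp before to 50 bp after the TSS, were searched on both strands for the E2F-type letters TTTCCCGC, TTTCGCGC, TTTGCCGC and TTTGGCGC. At least 1 match was found in 13 of the 40 (32.5%), against 2.72% of all protein-coding genes. Matches occurred in 3 of the 5 genes with a TSS peak (Orc3, Cdt1 and Tipin) and in 10 of the other 35 (Mcm3, Mcm4, Mcm5, Mcm6, Gins3, Cdc6, Rfc3, Pole, Timeless and Topbp1). Over all protein-coding genes, the share was 4.15% with and 2.47% without a TSS peak. CCAAT, the letters bound by NF-Y, was found on either strand in 26 of the 40 (65.0%) against 37.9% of all protein-coding genes. It was in 1 of the 5 genes with a TSS peak and in 25 of the other 35 (71.4%), while over all protein-coding genes it was as frequent with (36.7%) as without (38.1%) a TSS peak. Matches on opposite strands can overlap, and a match is a string of letters and not a bound site.

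Both promoters below carry E2F-type letters upstream of the TSS, marked in capitals. The Tipin promoter lies in a peak, while Mcm6 has none. The genes also differ in GC skew over the first 1 kb (0.268 against -0.0221) and in TSS fragment length (2.89 against 0.891 kb). CCAAT was found in the Mcm6 promoter and not in that of Tipin. The stretches shown are the 250 bp before the TSS in mm9, read on the coding strand.
Tipin, chr9:64129164-64129413, plus strand: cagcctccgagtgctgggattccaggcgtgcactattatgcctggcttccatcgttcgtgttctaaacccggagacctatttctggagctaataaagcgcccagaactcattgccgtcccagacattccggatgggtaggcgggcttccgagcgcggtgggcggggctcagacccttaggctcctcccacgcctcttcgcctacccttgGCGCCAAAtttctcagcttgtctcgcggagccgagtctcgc
Mcm6, chr1:130256234-130256483, minus strand: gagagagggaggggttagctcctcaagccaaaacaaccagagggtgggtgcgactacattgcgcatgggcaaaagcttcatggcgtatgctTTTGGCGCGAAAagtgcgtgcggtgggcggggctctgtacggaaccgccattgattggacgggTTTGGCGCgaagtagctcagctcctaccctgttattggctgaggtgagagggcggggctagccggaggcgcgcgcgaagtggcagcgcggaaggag
The Tipin match starts at -41 bp. In Mcm6 matches start at -159, -155 and -96 bp, the first 2 of them overlapping on opposite strands.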

How the data were processed

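Primary NSPCs were profiled by DRIP-seq in 3 biological replicates, with 3 DRIP reactions pooled for each library. The authors trimmed the reads (Trim Galore 0.6.6 in the submitters' processing notes), mapped them to the NCBI37/mm9 build, discarded duplicate reads and used a Hidden Markov Model to call peaks. The deposited file gives positions in base pairs and no other unit, and how replicates were combined into 1 list is not given in the sources used here. The input library was not analysed here.

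Peaks were placed on GENCODE M1 (37273 genes on 21 chromosomes), and an overlap was counted from 1 bp. The TSS and TES are the ends of the gene record. Protein-coding genes were sorted into 10 classes of length by 10 of promoter GC content (2 kb on either side of the TSS), and the share with a peak among the other genes of each member's class was averaged over the members. No genes were drawn and no p-value was computed, since 1 list has no replicates. The counting and class steps were tested on simulated data. The 40 genes and the lists were chosen with earlier results of these data known. Some items are not reported here. Named genes are the 40 members, genes that overlap or neighbour their peaks and genes that share their promoters, with the wider replication list and the cell type markers named in the closing section. In all, 23 alternatives in peak size, overlap, gene limits, classes and windows were computed. Calculations used Python 3.11.15 and numpy 2.4.6, and figures matplotlib 3.10.9.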

Additional observations from a re-analysis of the deposited data

How the results depend on the processing

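Among the counts, the alternatives moved 1 by over 1.5 times, that at the TES, where a peak within 1 kb instead of over it counted 3 members (Mcm7, Cdt1 and Pola2), against 17.4% of protein-coding genes. Members with a peak numbered 10 when the peak's midpoint, or the greater part of it, had to lie in the gene (Mcm7 and Pold1 dropped out), 13 with 2 kb added to each side (Pola2 joined), and 12 under the other 3 alternatives. The TSS count was 4 with peaks of at least 1 kb (without Orc3) and 6 with any annotated start (with Atrip). Under other classes, backgrounds and promoter windows, the share with a peak in genes of like length and promoter GC ranged from 42.6% to 47.0%, against 30.0% of members. Under other peak sizes, overlaps and gene limits it ranged from 35.3% (peaks of at least 1 kb, against 30.0% of members) to 49.3% (2 kb added to each side, against 32.5%). The difference between the median skew of members with and without a TSS peak was 0.13, and 0.088 over 2 kb or 0.079 over 500 bp; the cause was not tested. No paired analysis was possible because 1 peak list was used and its columns carry no replicate numbers. The list holds no depth, so a gene without a peak is one where none was called, and hybrids too weak for the caller cannot be told from their absence.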

Other observations

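A wider list of 46 genes of replication and fork repair, of which 45 were matched by symbol, was counted in the same way. A peak was found in 16 of the 45 (35.6%), against 48.3% in protein-coding genes of like length and promoter GC. The TSS lay in a peak in 8 (17.8%, against 16.4%), namely Pold4, Lig1, Rnaseh2a, Rnaseh2c, Rad9, Rad9b, Wee1 and Chtf8, and the TES in 7 (15.6%), namely Pold4, Rnaseh2a, Rnaseh2c, Rad9, Cdc25a, Rtel1 and Cinp, against 10.9% of all protein-coding genes. At the TES this wider list thus lay above the share of all protein-coding genes and the 40 genes of the report (2.50%) below it. The difference between the lists was not tested. For the wider list, the TES share in genes of like length and promoter GC was not computed. Pold4 (1.73 kb), a small subunit of DNA polymerase delta, Rnaseh2c (1.57 kb), a subunit of the RNase H2 enzyme that cleaves RNA in hybrids, and Rad9 (6.41 kb), part of the checkpoint clamp, were each covered by a peak over their full length. Lig1, the ligase that joins Okazaki fragments, had a peak at its TSS over 4.32% of the gene. Fen1, the flap nuclease of the same step, had a peak over 27.2% of the gene that covered neither end.

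The markers of the labelled cell type were looked up in the same list, although a peak is not a measure of expression. Of the neural stem/progenitor markers, Sox2, Nes, Vim and Msi1 had a peak over the TSS, Hes1 and Slc1a3 had peaks elsewhere in the gene, and Fabp7, Pax6 and Hes5 contained none. For the whole progenitor list, 44.0% of genes of like length and promoter GC contained a peak, and 24.2% had one over the TSS. Peaks were found in 0 of 3 neuron markers (Rbfox3, Syt1 and Snap25), 1 of 3 oligodendrocyte markers (Mbp), 1 of 4 microglia markers (Csf1r) and 1 of 3 endothelial markers (Pecam1), none over a TSS. In genes of like length and promoter GC the shares with a peak were 59.1%, 44.7%, 40.5% and 48.97%, so counts of 0 or 1 in lists this short say little.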
